A study of Homo sapiens with 15 samples.

Results

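The fibroblast growth factor (FGF) receptors FGFR1, FGFR2, FGFR3 and FGFR4, the co-receptor KLB, the ligand FGF19, the bile acid receptor NR1H4 (FXR), its target NR0B2 (SHP) and the paired bile acid exporters SLC51A and SLC51B were examined in Caco-2 cells exposed to a dishwasher rinse aid. The 10 genes are 10 of the 60557 genes shared by all count files. The set was chosen by the counts of KLB, which was among the strongest falls at the 1:10000 dilution, so that every value of the 1:10000 libraries against the controls, and KLB in any comparison, is given as a description with no p. Of the 13157 genes that passed the filter on low counts, 7 belonged to the set, and NR1H4, NR0B2 and SLC51A did not pass. FGF19 passed only because of its counts at 1:10000.

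Caco-2 cells were derived from a human colorectal carcinoma, and once confluent they take on features of enterocytes. Cell layers were left unexposed (control) or received rinse aid at 1:10000 or 1:40000 for 24 h, with 5 polyadenylated RNA libraries in each of 3 groups, and the 1:10000 solution is 4 times as concentrated as the 1:40000 one. No genetic change, vehicle or other agent is given in the labels, and they do not say whether the replicates were separate cultures, so a p measures only the spread between these samples. Control counts were made with RNA STAR and rinse aid counts with HISAT2, per the file headers, on different annotations, so aligner and exposure cannot be told apart in any comparison with control. The comparison between the dilutions does not have that split.

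FGF19 is the hormone with which the ileal enterocyte reports bile acid uptake to the liver. Bile acids enter the cell, bind FXR with its partner RXR, and FXR turns on FGF19, SHP and the exporter pair SLC51A and SLC51B (OST alpha and OST beta), which work only together. FGF19 acts on cells that carry an FGF receptor, mainly FGFR4, together with beta-klotho, the product of KLB, and in hepatocytes this lowers bile acid synthesis through CYP7A1. The receptors signal through FRS2, GRB2 and the ERK kinases, which raise Sprouty and dual-specificity phosphatase genes that in turn dampen the signal.

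Upstream sequences are shown for KLB, FGFR4 and SLC51B, the co-receptor and receptor of the FGF19 complex and the abundant subunit of the exporter pair, because the 3 genes took different courses over the groups. Each is the stretch of the RefSeq window (250 bases before the RefSeq start, GRCh38.p14) that lies ahead of the first base of the gene in GENCODE 29, printed 5′ to 3′ on the gene's strand. Capitals mark matches to the motifs searched. The spans are chr4:39406680-39406852 (plus strand) for KLB, chr5:177086665-177086885 (plus strand) for FGFR4 and chr15:65045137-65045369 (plus strand) for SLC51B.
KLB: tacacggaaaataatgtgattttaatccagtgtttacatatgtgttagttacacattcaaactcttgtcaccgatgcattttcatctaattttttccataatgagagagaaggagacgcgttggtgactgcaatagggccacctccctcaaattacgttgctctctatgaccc
FGFR4: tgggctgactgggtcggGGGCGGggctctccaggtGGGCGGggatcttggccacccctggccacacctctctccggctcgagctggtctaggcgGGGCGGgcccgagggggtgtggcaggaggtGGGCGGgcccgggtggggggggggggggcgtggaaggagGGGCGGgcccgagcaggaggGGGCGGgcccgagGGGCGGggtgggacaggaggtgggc
SLC51B: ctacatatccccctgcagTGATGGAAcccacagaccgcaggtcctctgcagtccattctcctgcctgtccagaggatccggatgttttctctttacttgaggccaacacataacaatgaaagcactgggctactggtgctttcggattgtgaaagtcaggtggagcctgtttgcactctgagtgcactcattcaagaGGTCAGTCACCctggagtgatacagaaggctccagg

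The 3 stretches differed in composition. Over the 250 bases, GC content was 39.2% for KLB, 79.6% for FGFR4 and 52.8% for SLC51B, beside a median of 58% over 35116 RefSeq windows, and CpG dinucleotides numbered 5, 24 and 4. FGFR4 held 7 GC boxes (GGGCGG), a motif found on either strand in 42.6% of all windows. SLC51B held GGTCAGTCACC 53 to 43 bases before its RefSeq start, a match to the inverted repeat that FXR binds, searched with 2 positions left free, which 0.0683% of windows hold. It also held TGATGGAA, a match to the ATF4 motif TGATGNAA (3.14% of windows), 232 to 225 bases before the start. In the 250 bases, KLB matched only the GATA motif GATAAG (5.65% of windows), 8 to 3 bases before the RefSeq start and past the printed stretch. Searches on both strands for the HNF4A motif CAAAGTCCA (0.325%), the AP-1 motif TGANTCA (6.57%) and the TATA box TATAAA (10.7%) gave no match in the windows of these 3 genes. Windows were at hand for 7 of the 10 genes, and FGFR3 and the main FGFR2 window were also rich in GC, at 86.8% and 78.4%, with 8 and 3 GC boxes. A match is a description of letters, and no match says only that these letters are not in the window.

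KLB, which encodes beta-klotho, lies on chromosome 4 at 39406853 to 39451536 (GRCh38, plus strand, ENSG00000134962). Its level in CPM, the normalised read count scaled to a common library size, was 10.8, 16.8, 10.4, 12.4 and 9.56 in the 5 control libraries, 6.70, 7.26, 6.60, 6.54 and 6.25 at 1:40000, and 0.351, 0.407, 0.631, 0.915 and 0.155 at 1:10000. The 3 groups did not overlap, and the order was control, then 1:40000, then 1:10000. Means were 12.01 ± 2.89, 6.67 ± 0.368 and 0.492 ± 0.291 CPM (SD, n = 5 each). On the log2 scale KLB lay at -4.61 ± 0.26 (SE) at 1:10000 against control, 24.4-fold lower, at -0.88 ± 0.16 at 1:40000 against control and at -3.72 ± 0.27 at 1:10000 against 1:40000. The last of these sets libraries of the same aligner against each other, and in it all 5 libraries at 1:10000 lay below all 5 at 1:40000.

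The depth behind the low KLB values was small. The 1:10000 libraries held 3, 2, 5, 6 and 1 KLB counts, 17 in all, for a pooled level of 0.458 CPM with an exact 95% Poisson interval of 0.267 to 0.734 that covers counting error only. The 1:40000 libraries held 1163, 19, 178, 65 and 61. KLB was ranked among the 10471 tested genes that averaged 5 CPM or more. It had the 91st lowest log2 fold change at 1:10000 against control, between ENSG00000213058 at -4.69 and AMER3 at -4.44. That comparison sets HISAT2 against RNA STAR files, so aligner and exposure cannot be told apart in the rank. Of the 50-base stretches of KLB transcripts, 0.265% also occurred in transcripts of another gene. In bulk RNA, fewer cells carrying a transcript and less transcript per cell cannot be told apart.

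**Figure D1:**
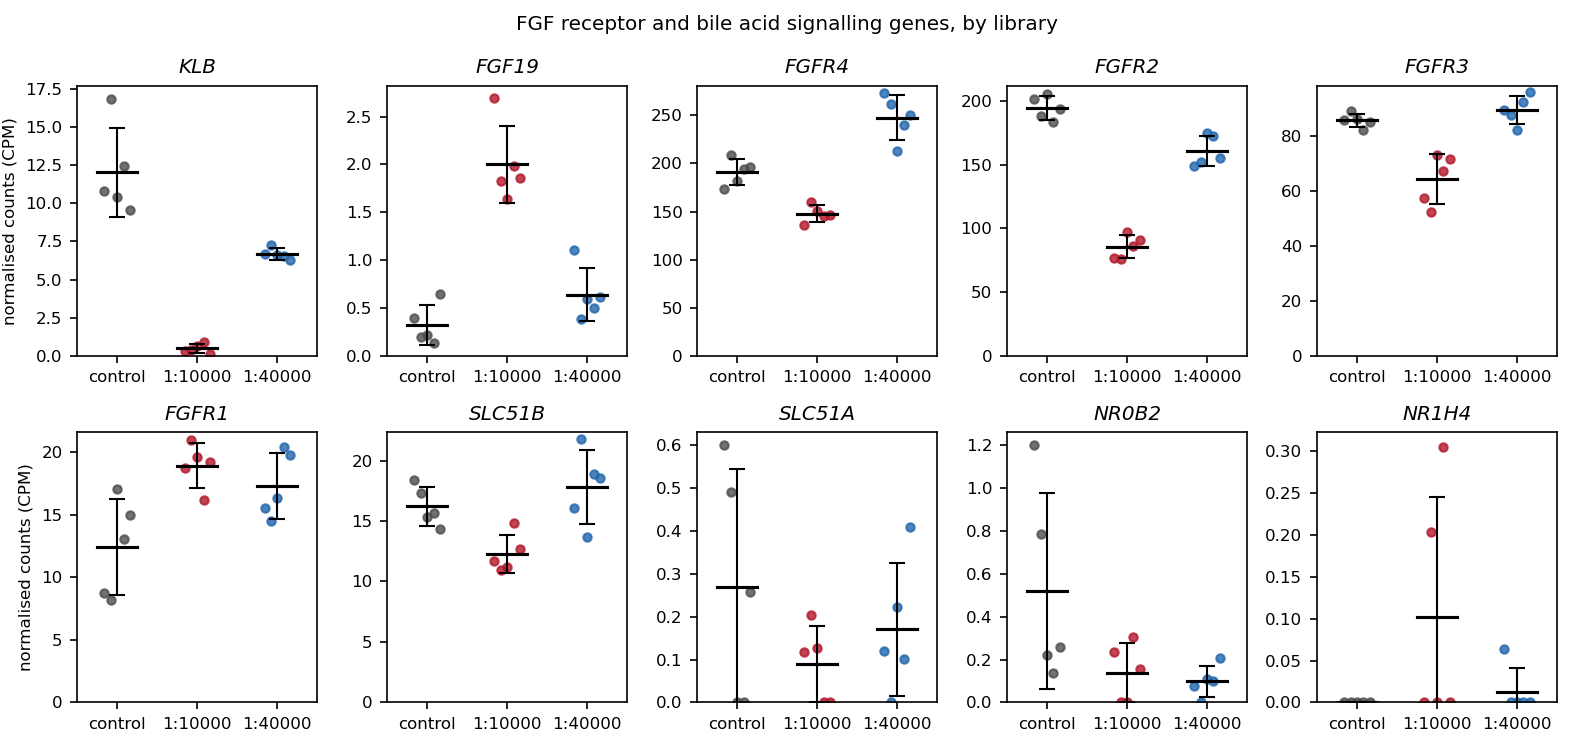
Normalised counts (CPM, y axis, a separate scale for each gene) of the 10 genes in each library of the 3 groups (x axis), with points for libraries and bars for the mean ± SD (n = 5). KLB falls into 3 separate bands, with 9.56 CPM or more in every control and 0.915 CPM or less in every 1:10000 library, while SLC51A, NR0B2 and NR1H4 stay close to 0.

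FGF19, the enterocyte's endocrine ligand (chromosome 11, 69698232 to 69704642, minus strand, ENSG00000162344), was scarce in every group. Control libraries held 0.399, 0.196, 0.222, 0.136 and 0.646 CPM, from 1 to 5 counts each. Libraries at 1:10000 held 2.69, 1.83, 1.64, 1.98 and 1.86 CPM, from 9 to 23 counts each, and those at 1:40000 held 1.11, 0.382, 0.593, 0.503 and 0.615 CPM. All 5 libraries at 1:10000 therefore lay above every other library, whereas control and 1:40000 overlapped. Against control the log2 fold change at 1:10000 was 2.77 ± 0.42. Between the dilutions it was 1.35 ± 0.31, given with no p because FGF19 entered the test only through the 1:10000 group.

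FGF19 at 1:40000 rose against control by 1.42 ± 0.43 (edgeR adjusted p = 0.00795), but that call rested on single libraries and on the 1:10000 group, without which FGF19 did not pass the filter. Replicate 1 of the 1:40000 group, the deepest library, held 192 of the FGF19 counts, and only that replicate lay above every control. Without it the log2 fold change was 0.93 (adjusted p = 0.107), without control replicate 4 it was 1.08 (0.0594), and without the deepest and the shallowest 1:40000 library together it was 0.97 (0.113). DESeq2 gave 1.3 (0.0523). Mean levels were 0.320 ± 0.207 CPM in controls, 2.00 ± 0.405 at 1:10000 and 0.640 ± 0.276 at 1:40000 (SD, n = 5).

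FGF21, the other metabolic FGF that needs beta-klotho, was too scarce for the test and is described by counts. No control library held a count. Every rinse aid library held at least 1, with 3, 2, 3, 5 and 3 counts at 1:10000 and 72, 1, 3, 4 and 5 at 1:40000. Over the whole control group, 3 counts would give a level of 0.0740 CPM. The pooled levels of 0.431 CPM at 1:10000 and 0.387 CPM at 1:40000 were 5.83 and 5.23 times that level. These ratios leave out the counting error of the rinse aid counts, so they are not lower bounds. Exact Poisson intervals, for counting error only, ran from 0.247 to 0.700 CPM at 1:10000 and from 0.309 to 0.479 CPM at 1:40000. The control interval reached up to 0.0909 CPM. FGF21 was singled out after its values were seen, and both comparisons also set HISAT2 against RNA STAR files.

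FGFR4, the main receptor for FGF19 (chromosome 5, 177086886 to 177098144, plus strand, ENSG00000160867), was the most abundant of the set per length. In CPM it measured 174, 209, 182, 195 and 197 in controls, 136, 160, 151, 146 and 147 at 1:10000 and 273, 261, 212, 240 and 250 at 1:40000. The 3 groups did not overlap, and the weaker solution gave the highest band and the stronger one the lowest. FGFR4 rose at 1:40000 against control by 0.37 ± 0.07 on the log2 scale (edgeR adjusted p = 7.02e-05). Between the dilutions it was lower at 1:10000, at -0.74 ± 0.07 (adjusted p = 1.92e-09). Against control, 1:10000 stood at -0.38 ± 0.07.

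FGFR2, whose epithelial form binds ligands of the FGF7 group, lies on chromosome 10 at 121478334 to 121598458 (minus strand, ENSG00000066468). It measured 202, 188, 205, 183 and 194 CPM in controls, 149, 152, 175, 173 and 155 at 1:40000 and 77.0, 76.3, 97.4, 86.2 and 90.6 at 1:10000. Here too the groups did not overlap, in the order that KLB had. FGFR2 fell at 1:40000 against control by 0.27 ± 0.07 (edgeR adjusted p = 0.00175), and at 1:10000 it was below 1:40000, at -0.91 ± 0.07 (adjusted p = 9.82e-11). Its log2 fold change at 1:10000 against control was -1.18 ± 0.07. Counts are per gene, so the epithelial and mesenchymal splice forms of FGFR2 were not separated.

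FGFR3 (chromosome 4, 1793293 to 1808872, plus strand, ENSG00000068078) measured 85.9, 89.1, 86.3, 82.3 and 85.3 CPM in controls and 89.5, 87.8, 82.4, 92.5 and 96.1 at 1:40000. These groups overlapped, with a log2 difference of 0.06 ± 0.08 (edgeR adjusted p = 0.505). At 1:10000 the libraries measured 57.5, 52.3, 73.1, 67.3 and 71.9 CPM, all below every other library, and FGFR3 was lower than at 1:40000 by a log2 value of -0.47 ± 0.08 (adjusted p = 1.48e-05). Pseudogenes FGFR3P1, FGFR3P5 and FGFR3P6 carry its name, but no 50-base stretch of its transcripts recurred in the transcripts of another gene.

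FGFR1, the receptor most abundant in mesenchymal cells (chromosome 8, 38400215 to 38468834, minus strand, ENSG00000077782), went the other way. It measured 8.79, 8.22, 17.1, 13.1 and 14.99 CPM in controls, 15.6, 14.5, 16.3, 20.4 and 19.8 at 1:40000 and 18.7, 20.96, 19.7, 16.2 and 19.2 at 1:10000. FGFR1 rose at 1:40000 against control by 0.50 ± 0.15 (edgeR adjusted p = 0.00827) although the groups overlapped, and 2 of the 5 libraries at 1:40000 lay above every control. The dilutions differed by 0.12 ± 0.15 (adjusted p = 0.51). Of its exon bases, 2.12% overlap LETM2 or an antisense gene, and the strand setting of the counting is not given in the sources used here.

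The mix of the receptors within a library needs no scaling between libraries. Of all FGFR1 to FGFR4 counts, FGFR4 made up 39.5% ± 2.39 in controls, 48.0% ± 3.38 at 1:40000 and 46.8% ± 2.97 at 1:10000, while FGFR2 made up 40.2% ± 2.07, 31.3% ± 3.12 and 27.0% ± 1.45 (SD, n = 5). FGFR1 was the smallest share, at 2.57% ± 0.777, 3.36% ± 0.484 and 6.002% ± 0.645, and FGFR3 held 17.7% ± 0.401, 17.4% ± 0.644 and 20.3% ± 2.04. Control libraries thus held FGFR4 and FGFR2 counts in near equal parts, and in rinse aid libraries FGFR4 had the larger share. Per exon length, FGFR4 led already in controls, at 47.2% against 30.6% for FGFR2. It stood at 55.5% at 1:40000 and 54.2% at 1:10000. Shares do not remove the split of aligners between control and rinse aid files. In mean level, FGFR4 stood at 191 CPM in controls, 247 at 1:40000 and 148 at 1:10000, and FGFR2 at 194, 161 and 85.5. At 1:10000 FGFR4 was therefore below control, and its larger share came with a deeper fall of FGFR2. Shares of one library are parts of a whole, so the FGFR4 and FGFR2 differences are not independent.

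Differences in these shares were tested with exact two-sided permutation tests, 8 in all, whose smallest p is 0.00794. The FGFR4 share at 1:40000 was, against control, 8.47 percentage points higher (exact p = 0.00794, Benjamini-Hochberg adjusted 0.0212), and the FGFR2 share differed by -8.94 points (exact p = 0.00794, adjusted 0.0212). With replicate numbers as pairs, both calls were lost, since the same differences had an exact p of 0.0625 each, the smallest that 5 pairs allow, with FGFR4 higher and FGFR2 lower in 5 of 5 pairs. FGFR1 differed by 0.798 points (exact p = 0.103, adjusted 0.138) and FGFR3 by -0.327 points (exact p = 0.381, adjusted 0.435), and neither passed. Between the dilutions, 1:10000 held more FGFR1 by 2.64 points (exact p = 0.00794, adjusted 0.0212) and its FGFR2 share differed by -4.30 points (exact p = 0.0159, adjusted 0.0317). With replicate numbers as pairs, only a hint between the dilutions, both calls were lost, at an exact p of 0.0625 each. FGFR1 was higher and FGFR2 lower at 1:10000 in 5 of 5 pairs. The FGFR3 difference of 2.89 points (exact p = 0.0476, adjusted 0.0762) and the FGFR4 difference of -1.22 points (exact p = 0.556, adjusted 0.556) did not pass.

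**Figure D2:**
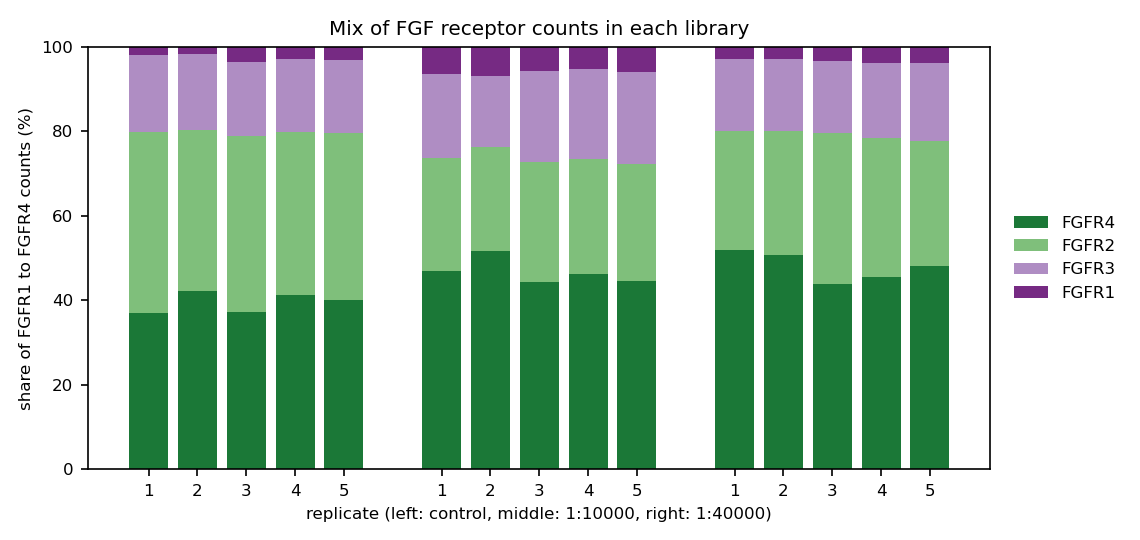
Share of FGFR1 to FGFR4 counts taken by each receptor (y axis, %) in each of the 15 libraries (x axis, replicate number within control, 1:10000 and 1:40000). FGFR2 narrows from a mean of 40.2% in controls to 27.0% at 1:10000, and FGFR1 is widest at 1:10000, with a mean of 6.002%.

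SLC51B, the beta subunit of the basolateral bile acid exporter (chromosome 15, 65045370 to 65053396, plus strand, ENSG00000186198), was well measured. It stood at 18.4, 17.3, 15.3, 15.7 and 14.3 CPM in controls, 16.04, 21.8, 13.7, 18.9 and 18.5 at 1:40000 and 11.7, 10.99, 11.2, 14.8 and 12.7 at 1:10000. Controls and 1:40000 overlapped, with a log2 difference of 0.08 ± 0.12 (edgeR adjusted p = 0.576). At 1:10000 SLC51B was lower than at 1:40000, at -0.48 ± 0.12 (adjusted p = 0.00184), and 4 of the 5 libraries lay below all of the 1:40000 ones. Of its exon bases, 6.38% overlap RASL12 on the other strand.

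Its partner SLC51A, the alpha subunit (chromosome 3, 196211487 to 196243178, plus strand, ENSG00000163959), was barely present. The 5 control libraries held 3, 5, 0, 0 and 2 counts, those at 1:10000 held 1, 1, 1, 0 and 0, and those at 1:40000 held 21, 0, 6, 1 and 4. Mean levels were 0.269 ± 0.275, 0.0893 ± 0.0882 and 0.171 ± 0.155 CPM (SD, n = 5), and the groups overlapped. Per length, control SLC51B stood at 17.2 CPM per kb and SLC51A at 0.0509 CPM per kb, so the subunits of the pair were present at very unequal levels. Of the SLC51A exon bases, 7.35% overlap PCYT1A on the other strand.

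NR1H4, the bile acid receptor FXR itself (chromosome 12, 100473708 to 100564413, plus strand, ENSG00000012504), had 0 counts in all 5 controls. The exact 95% Poisson interval of their pooled level, for counting error only, reached up to 0.0909 CPM. It had 0, 1, 0, 2 and 0 counts at 1:10000 and 11, 0, 0, 0 and 0 at 1:40000. No difference was detectable at this depth. NR0B2, the repressor SHP that FXR induces (chromosome 1, 26911489 to 26913966, minus strand, ENSG00000131910), had 6, 8, 1, 2 and 2 counts in controls, 2, 0, 0, 2 and 1 at 1:10000 and 13, 0, 3, 1 and 2 at 1:40000. Its means were 0.520 ± 0.457, 0.139 ± 0.137 and 0.0983 ± 0.0737 CPM, and the control and rinse aid groups overlapped. Outside the filtered fit, NR0B2 was called lower at 1:40000 than in controls by DESeq2 (-2.25, adjusted p = 0.0249) and by edgeR with no filter on low counts (-2.14, adjusted p = 0.0236).

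Ranked per length over union exons, control levels were led by FGFR4 at 39.6 ± 2.84 CPM per kb, followed by FGFR2 at 25.7 ± 1.21, FGFR3 at 17.7 ± 0.504 and SLC51B at 17.2 ± 1.72 (SD, n = 5). FGFR3 and SLC51B did not differ beyond their spread. KLB followed at 1.97 ± 0.476 and FGFR1 at 0.898 ± 0.279, ahead of NR0B2 at 0.449, FGF19 at 0.131, SLC51A at 0.0509 and NR1H4 at 0 CPM per kb. At 1:10000 the order was FGFR4 at 30.6, FGFR3 at 13.3, SLC51B at 13.1, FGFR2 at 11.3, FGFR1 at 1.37 and FGF19 at 0.818, with KLB at 0.0809 CPM per kb. Per length, KLB thus passed from above FGFR1 and FGF19 in controls to below both at 1:10000. Its place above FGFR1 in controls rests on the union exon lengths used, 6082 bases for KLB and 13842 for FGFR1. Without length, control means were 12.01 CPM for KLB and 12.4 CPM for FGFR1. FGFR2 moved from the second place to the fourth by mean. At 1:10000, however, FGFR3, SLC51B and FGFR2 (SD 1.89, 1.65 and 1.19) overlapped in mean ± SD, so their order there is not secure.

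Counted together, the 7 tested genes were all called at 1:10000 against control, 2 higher and 5 lower, where 71% of all tested genes were called (34.8% higher and 36.2% lower), and nothing is read from that count because the set was chosen there. In the other 2 comparisons KLB is left out, and so is FGF19, which passed the filter only through the 1:10000 group. At 1:40000 against control, 3 of the remaining 5 were called, where 52.1% of all tested genes were called. FGFR4 and FGFR1 were higher and FGFR2 lower. Their median log2 fold change, over all 5, was 0.08, beside -0.002 over all tested genes. Between the dilutions 4 of the same 5 were called, where 57.3% of all tested genes were called. FGFR4, FGFR2, FGFR3 and SLC51B were lower at 1:10000. The median of the 5 was -0.48, beside -0.007 over all tested genes. Groups did not overlap for 2 of the 5 at 1:40000 against control and for 3 of the 5 between the dilutions, beside 36.3% and 40.3% of all tested genes. The comparisons share libraries with each other.

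**Figure D3:**
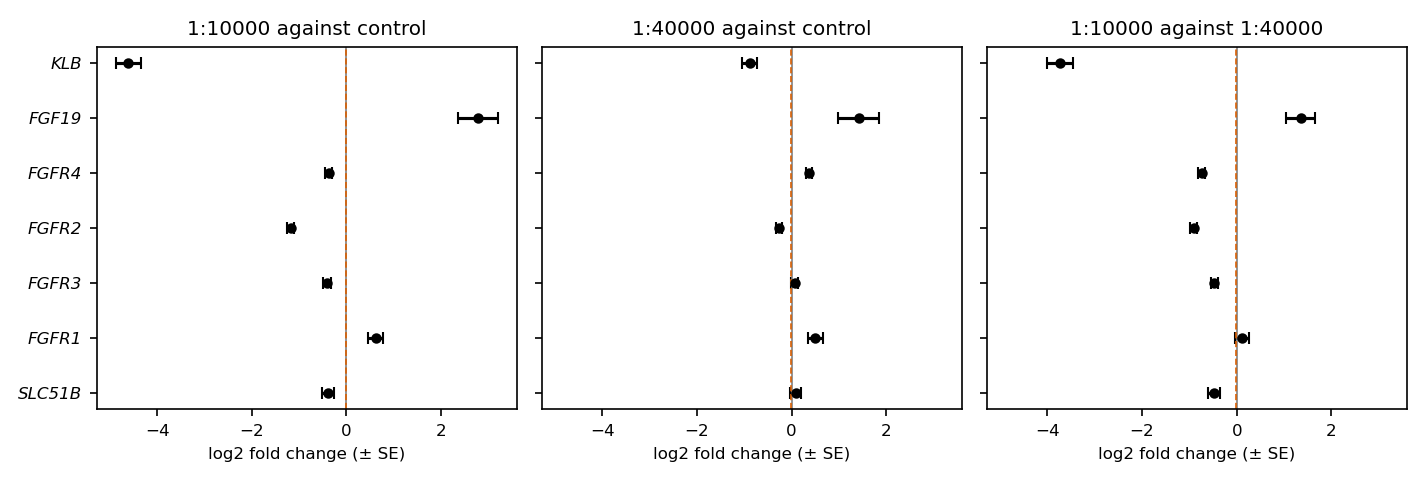
Log2 fold change (x axis, ± SE from edgeR) of the 7 tested genes (y axis) in the 3 comparisons, with the median of all tested genes as a dashed line near 0. KLB stands at -4.61, -0.88 and -3.72 and FGF19 at 2.77, 1.42 and 1.35, while the receptors and SLC51B lie between -1.18 and 0.62.

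The other genes of the pathway were followed in lists, first the FGF ligands and the proteins between receptor and ERK. The lists were drawn up with earlier results of these data known, so their counts beside the shares of all tested genes are descriptions. Of 21 other FGF ligands, 2 were abundant enough to test. FGF13, an intracellular homologous factor that is not secreted, measured 7.74 ± 1.75 CPM in controls and 15.6 ± 4.74 at 1:40000 and rose by 0.99 ± 0.21 on the log2 scale (edgeR adjusted p = 0.000512). FGF18, a secreted ligand of the FGF8 group, stood at 2.48 ± 0.822 CPM at 1:10000 and 0.793 ± 0.343 at 1:40000, a log2 difference of 1.58 ± 0.31, given with no p because FGF18, like FGF19, passed the filter only through the 1:10000 group.

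Of 18 co-receptors, heparan sulfate carriers and adaptors, 15 were tested. At 1:40000 against control 6 rose and 0 fell, namely FGFRL1, SOS2, PTPN11, CBL, SDC1 and SDC4, where 26.1% of all tested genes rose and 26% fell, and the list's median was 0.18. The calls of SDC1 and SDC4 were lost without the deepest and the shallowest 1:40000 library. CBL, a ubiquitin ligase that removes activated receptors, measured 169 ± 4.71 CPM in controls and 214 ± 24.4 at 1:40000 (0.35 ± 0.06, edgeR adjusted p = 6.07e-05). FGFRL1, a receptor without a kinase domain, measured 25.3 ± 1.89 and 34.0 ± 1.92 (0.42 ± 0.08, adjusted p = 0.000116). Between the dilutions 4 of the 15 were higher at 1:10000 and 3 lower, beside 28.3% and 29% of all tested genes, with a median of -0.05. SDC1, the main syndecan of epithelia, measured 70.0 ± 6.76 CPM at 1:10000 and 159 ± 10.8 at 1:40000 (-1.18 ± 0.07, adjusted p = 3.09e-12). KL, which encodes the klotho that serves FGF23 as KLB serves FGF19, was not tested, with 35 counts in all controls, 19 at 1:10000 and 101 at 1:40000.

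Most genes that report and dampen FGF and ERK signalling were higher at 1:40000 than in controls and higher again at 1:10000. Of 14, 13 were tested, and at 1:40000 against control 9 rose and 0 fell, with a median of 0.64, where 26.1% of all tested genes rose and 26% fell. DUSP5, a phosphatase of nuclear ERK, measured 12.7 ± 3.03 CPM in controls, 27.3 ± 2.69 at 1:40000 and 182 ± 47.4 at 1:10000, which gave 1.11 ± 0.20 at 1:40000 against control (edgeR adjusted p = 0.000314) and 2.75 ± 0.18 between the dilutions (adjusted p = 4.41e-09). SPRY1, a Sprouty inhibitor of receptor signalling, measured 5.94 ± 1.59, 13.9 ± 1.55 and 24.9 ± 2.42 CPM in the same order (1.22 ± 0.14, adjusted p = 9.18e-08, and 0.84 ± 0.12, adjusted p = 2.61e-06). Between the dilutions 11 of the 13 were higher at 1:10000 and 1 lower, with a median of 1.05, where 28.3% of all tested genes were higher and 29% lower. The lower one, IL17RD, a membrane inhibitor of FGF signalling named after its values were seen, stood at 3.89 ± 0.241 CPM at 1:10000 and 7.71 ± 2.13 at 1:40000 (-0.91 ± 0.17, adjusted p = 8.19e-05). Many other receptors feed the same genes, and which receptor acted was not tested.

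Of 19 bile acid receptors and their nuclear partners, 14 were tested. At 1:40000 against control 6 were called, 2 higher (GATA4 and S1PR2) and 4 lower (VDR, HNF4A, NCOR1 and RXRB), with a median of -0.03, where 52.1% of all tested genes were called, and the call of GATA4 was lost without the deepest and the shallowest 1:40000 library. HNF4A, which sets hepatocyte and enterocyte gene programmes, measured 572 ± 42.8 CPM in controls, 440 ± 38.0 at 1:40000 and 217 ± 16.4 at 1:10000 (-0.38 ± 0.07, edgeR adjusted p = 4.47e-05, and -1.02 ± 0.07 between the dilutions, adjusted p = 7.86e-12). RXRB, an RXR partner of FXR, stood at 13.0 ± 1.98 CPM in controls and had 1 count in all 1:10000 libraries and 2 in all 1:40000 libraries, so that it was near absent from every HISAT2 file. It passed the filter only through the controls, so no fold is given and nothing is read from its call. Between the dilutions 2 of the 14 were higher at 1:10000 and 9 lower, with a median of -0.41, where 28.3% and 29% of all tested genes were. RXRA, the more abundant partner, measured 76.0 ± 4.41 CPM at 1:10000 and 176 ± 9.88 at 1:40000 (-1.22 ± 0.06, adjusted p = 1.05e-13), and 194 ± 11.8 in controls. GATA4 had 0.572 ± 0.388 and 3.33 ± 0.988 CPM at the 2 dilutions (-2.48 ± 0.33, adjusted p = 6.19e-07).

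Of 16 bile acid carriers, 7 were tested. ABCC3 and ABCG2 rose and SLC10A1 fell at 1:40000 against control, with a median of 0.06, so that 3 of 7 were called where 52.1% of all tested genes were. ABCG2, an apical exporter, measured 23.3 ± 2.29 CPM in controls, 42.5 ± 2.55 at 1:40000 and 68.8 ± 4.02 at 1:10000 (0.87 ± 0.08, edgeR adjusted p = 1.77e-09, and 0.68 ± 0.08 between the dilutions, adjusted p = 3.5e-08). SLC10A1, the hepatocyte's bile acid importer, measured 10.8 ± 2.82, 4.23 ± 1.12 and 1.57 ± 0.820 CPM in that order (-1.35 ± 0.21, adjusted p = 1.08e-05, and -1.50 ± 0.28, adjusted p = 8.74e-05). Between the dilutions 1 of the 7 was higher at 1:10000 and 4 lower, with a median of -0.29, so that 5 of 7 were called where 57.3% of all tested genes were. ABCC3, a basolateral exporter that can serve beside the SLC51 pair, measured 29.6 ± 2.46 CPM at 1:10000 and 61.4 ± 5.82 at 1:40000 (-1.06 ± 0.09, adjusted p = 9.07e-10).

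Of 22 genes of bile acid synthesis and conjugation, 11 were tested. At 1:40000 against control 0 rose and 6 fell, with a median of -0.31, where 26.1% of all tested genes rose and 26% fell. The 6 include UGT2B7, which passed the filter only through the controls. Between the dilutions 0 were higher at 1:10000 and 8 lower, with a median of -0.38, where 28.3% and 29% of all tested genes were. CYP27A1, which opens the acidic pathway of synthesis, measured 62.0 ± 7.40 CPM in controls, 27.1 ± 0.993 at 1:40000 and 10.4 ± 1.90 at 1:10000 (-1.20 ± 0.09, edgeR adjusted p = 8.18e-11, and -1.36 ± 0.11 between the dilutions, adjusted p = 2.39e-10). SULT2A1, which sulfates bile acids, measured 36.1 ± 4.28, 14.2 ± 2.16 and 6.45 ± 1.37 CPM in that order (-1.39 ± 0.13, adjusted p = 1.21e-09, and -1.07 ± 0.15, adjusted p = 1.36e-06). CYP7A1, the rate-limiting enzyme of the classic pathway, had 1, 0 and 1 counts in all control, 1:10000 and 1:40000 libraries.

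**Figure D4:**
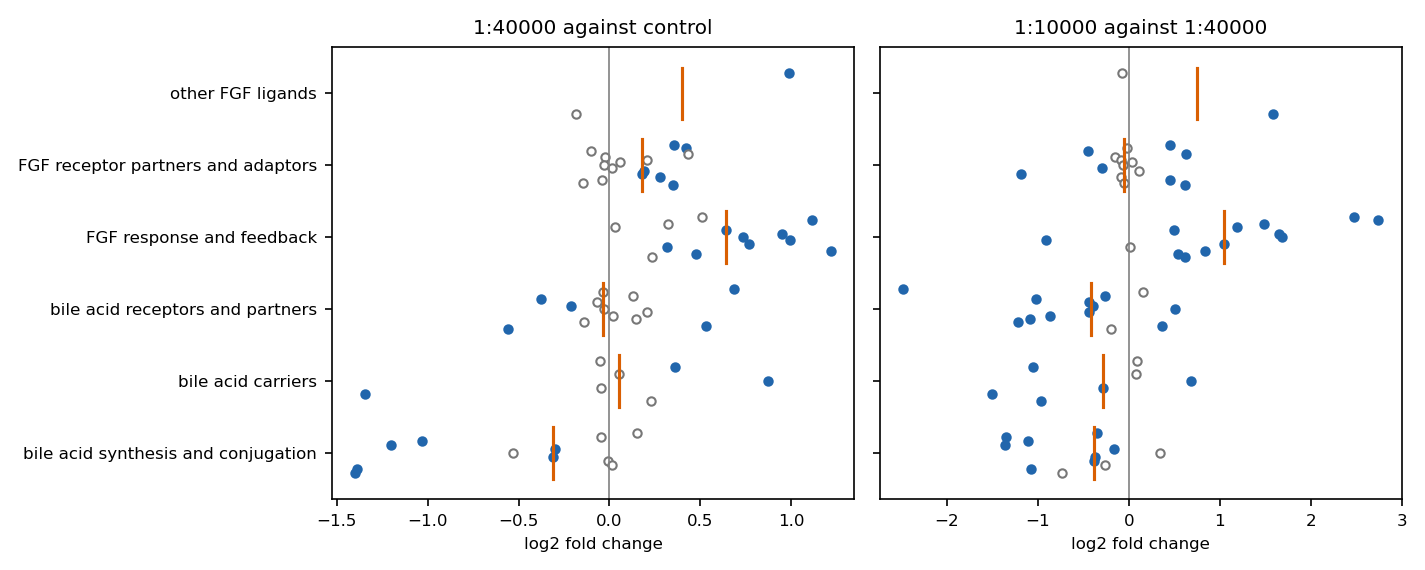
Log2 fold change (x axis, a separate scale in each panel) of every tested gene of the 6 lists (y axis), for 1:40000 against control and for 1:10000 against 1:40000. Filled points were called at an adjusted p under 0.05, open points were not, and orange bars are list medians, which run from -0.31 to 0.64 in the first panel and from -0.41 to 1.05 in the second. RXRB, near absent from the rinse aid files, is not drawn but counts in the medians.

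Genes closest in pattern to the 6 members that averaged 5 CPM or more were sought over the 15 libraries by the root mean square difference of centred log2 CPM among 10396 genes. Nearest to KLB came SPTLC3, a serine palmitoyltransferase subunit, at 0.608 log2 units with 56.0, 33.9 and 5.32 CPM in control, 1:40000 and 1:10000, then SMAD6 at 0.653, NHS at 0.673, NYNRIN at 0.683 and CLDN19 at 0.685. All of these lay well away from KLB, which had the lowest share of its control level at 1:10000. FGFR4 had a close match in CLSTN1 at 0.0646 (Pearson r = 0.981), followed by LRRC61 and CMIP. Close to FGFR2 lay CTSV at 0.0895 (r = 0.986), HGSNAT and PARP1, and close to FGFR3 lay GYS1 at 0.0888 (r = 0.946), ARID3A and LARP1. SLC51B was nearest to TTR, a hepatocyte plasma protein gene, at 0.127 (r = 0.894), then SERPINF1 and AACS, and FGFR1 to CRABP2 at 0.175 (r = 0.896), FAM3C and ZNF74. These correlations run over libraries that share 3 group means, so they are descriptions.

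**Figure D5:**
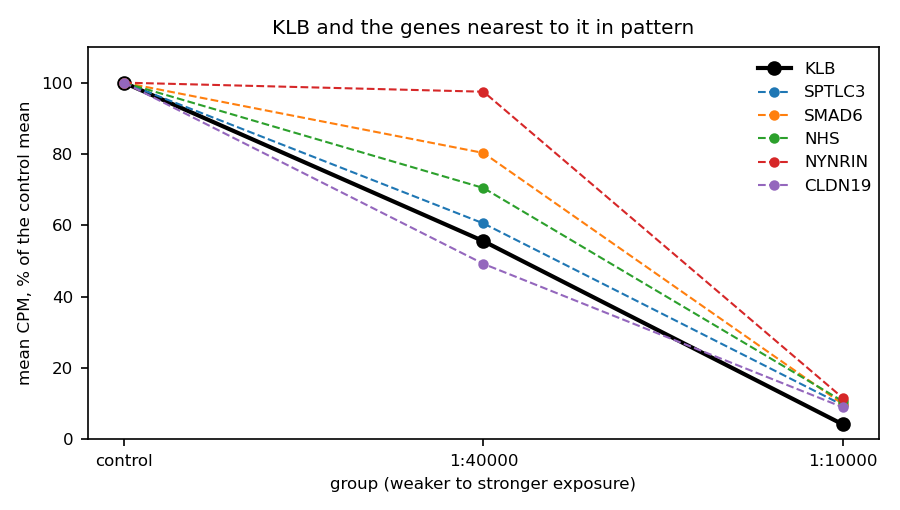
Mean CPM as a percentage of the control mean (y axis) in control, 1:40000 and 1:10000 (x axis) for KLB (solid line) and the 5 genes nearest to it in pattern (dashed lines). The lines spread apart at 1:40000, while at 1:10000 KLB lies lowest, with 0.492 CPM of a control mean of 12.01 CPM.

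Libraries held from 2551839 to 172092447 counts, both extremes at 1:40000 (replicates 2 and 1), against 4333226 to 14230853 in controls and 5489425 to 9555632 at 1:10000. The share of counts from mitochondrial ribosomal RNA was 0.216 to 0.349% in controls, 0.626 to 1.24% at 1:40000 and 3.11 to 3.83% at 1:10000, in the reverse of the order that KLB and FGFR2 followed, and its part in these results was not tested. Enterocyte markers fitted the label, with 12 of 14 at 1 CPM or more in each group and a summed level of 10119 to 11714 CPM in controls, 12059 to 14198 at 1:10000 and 10234 to 11381 at 1:40000. Of the 12 tested, however, 8 were lower at 1:10000 than at 1:40000 and 2 higher, with a median of -0.38. Of all tested genes, 29% were lower and 28.3% higher. The higher sum at 1:10000 thus did not reflect most of the list. KRT20 was at 0 in both rinse aid groups and CDX1 at 0 in controls and at 1:10000. Caco-2 also expressed hepatocyte markers, 7 of 12 in controls, 6 at 1:10000 and 7 at 1:40000, whose summed level was 714 to 1258, 429 to 704 and 756 to 1058 CPM, and their part in the lower FGFR4, SLC51B and synthesis genes at 1:10000 was not tested. Of 9 fibroblast markers, 5 reached 1 CPM in each group, with sums of 178 to 194, 89.3 to 109 and 139 to 163 CPM and with POSTN and THY1 at 0 throughout. Of 6 endothelial markers 1 did, with sums of 3.77 to 10.8, 3.26 to 4.27 and 7.41 to 11.6 CPM and with KDR and CLDN5 at 0 throughout. Of 8 leukocyte markers 3 did, with sums of 24.4 to 31.6, 20.6 to 29.6 and 27.1 to 39.5 CPM and with PTPRC at 0 throughout.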

How the data were processed

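Polyadenylated RNA of 15 Caco-2 libraries was made with the TruSeq RNA Kit, per the labels. The authors deposited 1 file of raw counts for each library, by Ensembl gene. Per the file headers, control counts came from RNA STAR and rinse aid counts from HISAT2. GRCh38, STAR 2.7.9a, cutadapt, DESeq2 1.32.0 and featureCounts are listed, with no roles, per the submitters' processing notes, and the annotation release and strand setting are not given in the sources used here. Files were joined by identifier without version.

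The counts were fitted in R 4.3.3 with edgeR 4.0.16 (TMM scaling, filterByExpr by group, 3 group means over all 15 libraries, robust quasi-likelihood test). Benjamini-Hochberg adjustment covered all 13157 tested genes in each comparison, and a call is an adjusted p under 0.05. The SE was taken from F, as the size of the log2 fold change over the root of F. CPM are TMM-normalised, ± SD over 5 libraries. Receptor shares were tested by exact permutation. Positions, exon lengths and overlaps come from GENCODE 29, and windows from RefSeq. The fit was tested on simulated counts, and no pair of libraries was identical.

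The members and lists were chosen with earlier results of these data known. All 10 members are named, with, for each list, the 3 most abundant tested genes and the 2 largest called changes per comparison, of which a part is given, and the nearest genes in pattern. Other genes named (FGF21, IL17RD, KL, CYP7A1 and those counted by name) were chosen after their values were seen. Control and 1:40000 libraries of the same replicate number deviated together over the 2000 most abundant genes (r from 0.119 to 0.375), so these numbers were treated as pairs on the data alone. Alternatives were DESeq2 1.42.0, upper-quartile and relative log expression scaling, TMM from protein-coding genes of unchanged version, no filter, only the 2 groups compared, the replicate block, leaving out 1:40000 replicates 1 and 2 together, each library left out in turn and, for shares, counts per exon length.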

Additional observations from a re-analysis of the deposited data

Results flagged for a closer look

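In the 1:40000 group, NR1H4 in replicate 1 stood apart from the other 4 libraries, at 0.0634 CPM (11 counts) where they had 0. That library holds 172056070 counts in shared genes, and the other 4 together hold 47548933, in which 3 counts would correspond to 0.0631 CPM. Of 38 groups of 5 libraries examined this was the only one with such a gap, and chance gives about 1 in 20. With the other 4 libraries at 0, any count in replicate 1 gives the full gap, so nothing is read from it.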

How the results depend on the processing

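No result changed direction in any setting. The FGFR4 share at 1:40000 against control lost its call only with the replicate block (8.47 points, exact p = 0.0625). The FGFR2 share also lost its call with that block (-8.94 points, exact p = 0.0625, an alternative chosen after seeing the data). Between the dilutions the FGFR1 and FGFR2 shares lost their calls with that block too (2.64 and -4.30 points, exact p = 0.0625 each). An exact p of 0.0625 is the smallest that 5 pairs allow, so no share could keep a call with that block. The FGFR4 share at 1:40000 against control spanned 7.50 to 9.53 points with each library left out. With each library left out, genes called spanned 9053 to 9555 at 1:10000 against control, 6254 to 6971 at 1:40000 against control and 7075 to 7624 between the dilutions. Members called numbered 3 to 4 at 1:40000 against control and 5 throughout between the dilutions. These member counts include FGF19, which passed the filter only through the 1:10000 group, so nothing is read from them. The replicate block gave 9592, 7314 and 8012 genes and changed no member's call. Same-numbered libraries correlated over 0.1 in 13 of 15 pairs, with r from -0.0661 to 0.443, and 11 of 15 libraries matched their own number best. In the comparisons with 1:10000 libraries some pairs fell under 0.1, so numbers there are only a hint. Among single genes, besides FGF19, the calls of SDC1, SDC4 and GATA4 at 1:40000 against control and of HSD17B4 between the dilutions were lost in some settings. Without the deepest and the shallowest 1:40000 library they had log2 fold changes of 0.15 (adjusted p = 0.132), 0.22 (0.121), 0.50 (0.153) and -0.12 (0.107). SDC1 lost its call without any of 7 libraries, the controls 3, 4 and 5 and the 1:40000 libraries 1, 2, 4 and 5, and the cause was not tested. The other FGF ligands called at 1:40000 against control numbered 1, and 2 under DESeq2 and with no filter. NR0B2, outside the filtered fit, was called lower at 1:40000 against control under DESeq2 and with no filter. At 1:10000 KLB had at most 6 counts per library and NR1H4, NR0B2 and SLC51A at most 2, and no control library had more than 5 counts of FGF19.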

Other observations

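Other parts of the ileal bile acid circuit were scarce in these Caco-2 libraries. Pooled over control, 1:10000 and 1:40000 libraries, SLC10A2, the apical bile acid importer of the ileum, had 1, 1 and 1 counts, and FABP6, its cytosolic carrier, had 7, 2 and 66. GPBAR1, the membrane bile acid receptor, had 2, 1 and 9, and NR1I2, a nuclear receptor that also senses bile acids, had 12, 0 and 27. The canalicular exporter ABCB11 had 0 counts in all 15 libraries. AKR1D1, a reductase of bile acid synthesis, had 49, 11 and 141 counts, or 1.05 ± 0.285, 0.322 ± 0.139 and 0.819 ± 0.211 CPM (SD, n = 5). None of these genes was tested, and they were picked after their values were seen.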
